A study of Mus musculus with 7 samples.

Results

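The mitochondrial genome of the mouse carries 37 annotated genes, of which 13 encode proteins, 2 encode ribosomal RNAs (rRNAs) and 22 encode transfer RNAs (tRNAs). All 37 were present among the 46603 Ensembl genes counted in each library and were taken by their place on the mitochondrial chromosome, with symbols from the GENCODE M21 annotation of GRCm38. Their levels, and the share each gene took of the mitochondrial counts, were compared between 3 KO and 4 KO+NM1 tumor libraries. Nuclear myosin 1 (NM1) is an isoform made from the Myo1c gene. KO tumors came from mouse embryonic fibroblasts (MEFs, line CRL-2752) that had lost NM1 through CRISPR/Cas9 deletion. KO+NM1 tumors came from the same KO cells after lentiviral transduction with an NM1 coding sequence tagged with HA and V5, neomycin selection and testing of single clones. Both were grown in female Balb/c nude mice injected at 16 weeks of age and followed for up to 30 days by the sample descriptions, or for a shorter time by the methods. The sample descriptions give a single tumor for each condition, cut into 4 pieces that were homogenized separately, although the methods write of tumors. The n of each group is therefore a number of tumor pieces, and where each condition gave 1 tumor the SDs and p-values hold the spread within a tumor and none from mouse to mouse. A piece also holds cells of the host mouse, whose mitochondrial genes have the same names as those of the injected cells. In bulk tissue of this kind, fewer cells of a type and less RNA per cell cannot be told apart.

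The mitochondrial genome is a small circle present in many copies per cell. It is transcribed inside the organelle by its own polymerase, Polrmt, with the packaging and initiation factor Tfam, into long RNAs that run over many genes on either strand. The tRNAs lie between most of the other genes, and cutting them out of the long RNA frees the rRNAs and messenger RNAs. The 13 proteins are core subunits of complexes I, III and IV of the respiratory chain and of ATP synthase (complex V), where they assemble with subunits encoded in the nucleus, while complex II is wholly nuclear. Tissues that burn much fuel, such as brown fat and muscle, are rich in mitochondria and in these transcripts.

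Some of these genes share sequence with each other or with the nucleus, and this bears on what a count can mean. On GRCm38, mt-Atp8 (chrMT:7766-7969, plus strand) and mt-Atp6 overlap by 43 bases, shown in capitals in the mt-Atp8 sequence. The last 60 bases of mt-Nd4l (chrMT:10114-10173, plus strand) and the first 60 of mt-Nd4 (chrMT:10167-10226, plus strand) share the 7 bases in capitals.
mt-Atp8: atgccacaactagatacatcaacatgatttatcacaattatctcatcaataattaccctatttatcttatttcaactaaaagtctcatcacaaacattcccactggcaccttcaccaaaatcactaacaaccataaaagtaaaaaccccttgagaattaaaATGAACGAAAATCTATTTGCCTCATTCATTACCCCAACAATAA
mt-Nd4l: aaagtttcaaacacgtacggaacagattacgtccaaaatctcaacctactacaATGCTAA
mt-Nd4: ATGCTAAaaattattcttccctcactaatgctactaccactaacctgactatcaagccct

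A longer stretch is also present in the nucleus. Over 4663 bases of chromosome 1 (chr1:24611535-24616197, minus strand) the annotation lists 7 pseudogenes that match the mitochondrial genome from within mt-Co1 to within mt-Nd4 at over 99% identity. The copies of mt-Co2 (Gm28661), mt-Atp6 (Gm10925), mt-Co3 (Gm28437), mt-Nd4l (Gm10222) and the first 876 bases of mt-Nd4 (Gm28439) were identical over their aligned length. The copy of mt-Nd3, Gm28438, differed from it in 1 of 345 bases, T3C, counted from the 5′ end of mt-Nd3 with the mitochondrial base given first. The start of both is shown with that base in capitals, from chrMT:9459-9486 (plus strand) and chr1:24613092-24613119 (minus strand).
mt-Nd3: atTaacctgtacactgttatcttcatta
Gm28438: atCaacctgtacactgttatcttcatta

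Of the 75-base windows of a gene, the share found exactly in an annotated nuclear gene was 99.5% for mt-Co2 and for mt-Atp6, 99.9% for mt-Co3, 97.8% for mt-Nd3 and 98.7% for mt-Nd4l. It was 61.5% for mt-Nd4, 39.8% for mt-Co1, 5.71% for mt-Nd2 and 1.66% for mt-Nd5, and no window of mt-Nd1, mt-Nd6, mt-Cytb, mt-Atp8 or either rRNA gene was found there. Windows in unannotated nuclear sequence were not searched, and mt-Atp8 lies between mt-Co2 and mt-Atp6 in the copied stretch. Counts on the 8 genes of this stretch are uncertain in level, since the handling of reads with several matches is not given in the sources used here. The 5 protein genes outside it, mt-Nd1, mt-Nd2, mt-Nd5, mt-Nd6 and mt-Cytb, therefore serve as the comparison free of the chromosome 1 copy.

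Total counts per library ran from 24088309 to 28326568, and levels are given as CPM, the counts divided by the TMM-scaled library size and set to a common total. A count of 0 allows a level of up to 3 counts, equal to 0.0991 to 0.148 CPM, which covers counting error only. The libraries differed in the cell types they held. Beside the marker counts that follow, 20.3% of all tested genes were called lower in KO and 17.1% higher. All 10 white adipocyte markers were called lower in KO, with summed levels of 199.7 to 416.4 CPM in the KO pieces and 5441 to 39525 CPM in the KO+NM1 pieces, and all 10 skeletal muscle markers were called higher in KO (2631 to 21001 CPM against 8.45 to 25.96 CPM). Of the 8 brown adipocyte markers, 5 were lower and 1 was higher in KO (37.0 to 60.8 CPM against 423.2 to 3709 CPM), and Ucp1, the uncoupling protein that defines these cells, was at 0.0348 to 0.132 CPM in the KO pieces and at 129.7 to 1775 CPM in the KO+NM1 pieces. KO+NM1 piece 01 stood apart by its B and plasma cell markers, which summed to 3647 CPM there and to 3.41 to 39.9 CPM in the 6 other libraries, and these 6 markers had edgeR adjusted p of 0.144 to 0.184. Of the fibroblast markers, those of the injected cell type, 4 of 10 were lower and 1 was higher (9526 to 15321 CPM against 3912 to 14207 CPM). The corresponding counts were 5 of 6 higher for macrophages (1723 to 1970 CPM against 447.5 to 2256 CPM), 5 of 5 lower for endothelial cells (160.9 to 180.2 CPM against 877.9 to 1159 CPM) and 4 of 6 tested lower for mammary epithelium (3.73 to 65.9 CPM against 435.2 to 1858 CPM), where Wap was at or under 0.0822 CPM, below the limit for a count of 0, in every library of both groups.

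Mitochondrial genes took a smaller part of the RNA in KO tumors than in KO+NM1 tumors. Of all counts they held 1.81%, 2.14% and 1.87% in the KO tumor (pieces 01 to 03) and 5.11%, 10.5%, 18.5% and 7.77% in the KO+NM1 tumor (pieces 01 to 04). The groups did not overlap, with means of 1.94% ± 0.174 (SD, n = 3) and 10.5% ± 5.78 (SD, n = 4), and the KO+NM1 pieces differed from each other far more than the KO pieces did. KO+NM1 piece 03 was the highest and piece 01 the lowest of its tumor. Summed white adipocyte, brown adipocyte and endothelial markers each ranked the 4 KO+NM1 pieces in the same order as the mitochondrial share, 03, 02, 04 and 01, while muscle markers were highest in the KO pieces, where the mitochondrial share was lowest. The white adipocyte sums of pieces 03 and 02 were close (39525 and 39388 CPM). Within each list some markers held this order, such as Fabp4, Cidea and Cdh5, and others did not. Adipoq was highest in piece 02, Ucp1 was lowest in piece 04 and Pecam1 was highest in piece 01. Within the KO pieces, summed muscle markers ranked 02, 03 and 01, the order of the mitochondrial share there, as did white and brown adipocyte markers. The brown adipocyte sum of the KO pieces came mostly from 2 genes and says little about brown adipocytes there. These were Cox8b (4.87, 22.3 and 21.2 CPM) and Zic1, the brown marker called higher in KO (26.6, 18.4 and 21.3 CPM). Zic1 ranked the KO pieces 01, 03 and 02. Endothelial markers ranked the KO pieces 03, 02 and 01. The part of any of these cells in the result was not tested. Without piece 03 the difference of the means went from -8.54 to -5.87 percentage points. Within the mitochondrial counts, protein genes made up 92.7% to 95.7% in KO and 94.2% to 96.6% in KO+NM1 pieces, so nearly all mitochondrial reads came from the messenger RNAs.

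**Figure D1:**
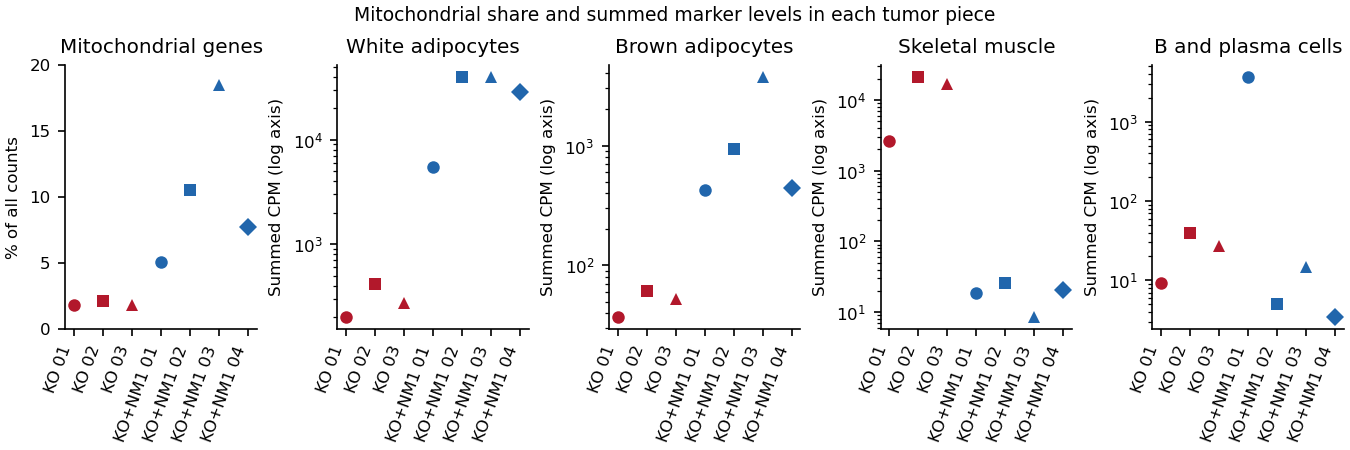
Mitochondrial counts as a percentage of all counts (left panel, linear axis) and summed CPM of the markers of 4 cell types (other panels, log axes) in each of the 3 KO (red) and 4 KO+NM1 (blue) pieces, 1 point per library. The KO pieces lie at 1.81% to 2.14% and the KO+NM1 pieces at 5.11% to 18.5%, white and brown adipocyte markers are higher and muscle markers lower in every KO+NM1 piece, and B and plasma cell markers stand out in KO+NM1 piece 01.

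Gene by gene, 21 of the 37 members had enough counts to be tested, and each of the 21 was called lower in KO by edgeR's quasi-likelihood test (adjusted p under 0.05 and at least 2-fold). With every fitted change below 0, edgeR called 0 members higher, as did DESeq2 and limma voom. These were the 13 protein genes, both rRNA genes and 6 tRNA genes. Of the 21, mt-Tl1, mt-Te and mt-Nd4l passed the filter through their KO+NM1 pieces, with 0 to 4, 6 to 10 and 8 to 19 counts in the KO pieces. The filter therefore favored a fall in these genes. With at least 10 counts asked of every library, 18 members were tested and all 18 were called lower. With every gene of at least 1 count, 32 were tested and 20 were called lower. Over all 16887 genes tested, 20.3% were called lower and 17.1% higher. For none of the 21 did the ranges of the tumors overlap, and KO lay wholly below KO+NM1 in 26.4% of all tested genes. The median log2 fold change of the 13 protein genes (KO minus KO+NM1) was -2.63, beside -0.0017 over all tested genes. Leaving out KO piece 01 left 13 members called, KO piece 02 left 17 and KO piece 03 left 14, while leaving out any KO+NM1 piece left 20 or 21.

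**Figure D2:**
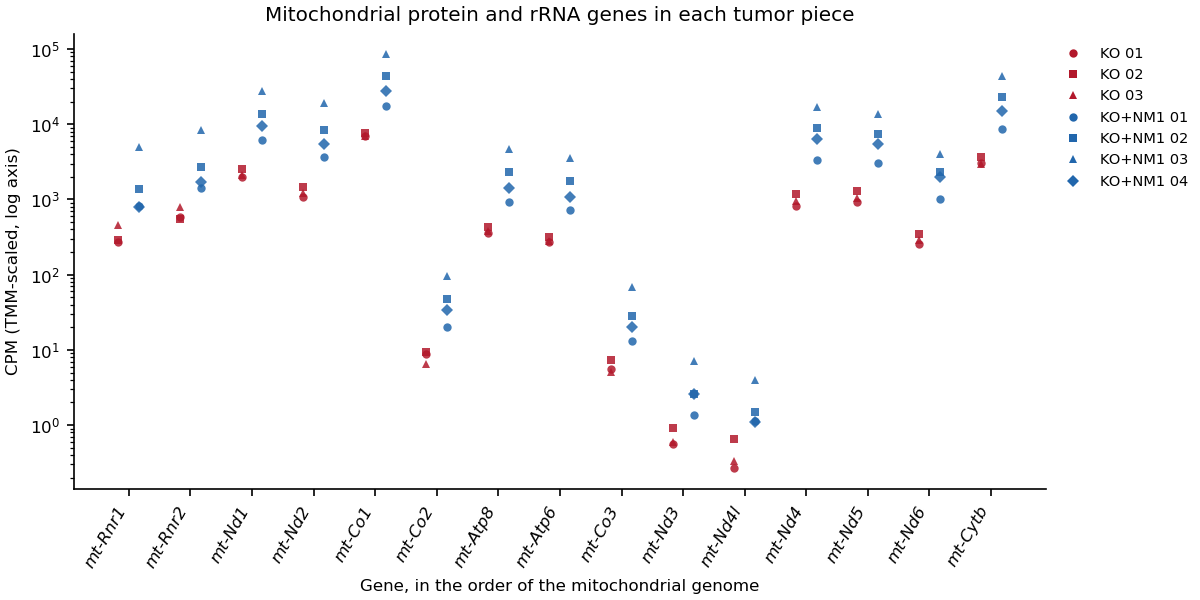
CPM on a log axis of the 13 protein and 2 rRNA genes, in the order of the mitochondrial genome, with 1 point for each of the 3 KO (red) and 4 KO+NM1 (blue) pieces. In every gene the KO points lie below the KO+NM1 points, and mt-Co2, mt-Co3, mt-Nd3 and mt-Nd4l lie far below their neighbours in both groups.

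Complex I, the entry point for electrons from NADH, takes 7 of its subunits from the mitochondrial genome, and all 7 genes fell, by log2 fold changes between -3.16 and -2.18. mt-Nd1 (bases 2751 to 3707, plus strand) was at 2015, 2528 and 2145 CPM in the KO pieces and at 6259, 13581, 27782 and 9484 CPM in the KO+NM1 pieces (log2 fold change -2.68, SE 0.56, edgeR adjusted p = 0.0105, or 0.05003 without KO piece 01). mt-Nd2 (3914 to 4951) was at 1091, 1483 and 1227 CPM against 3643, 8431, 19169 and 5444 CPM, with a log2 fold change of -2.86 (SE 0.59, adjusted p = 0.0105). The lowest KO+NM1 piece, 01, was still 2.48 times the highest KO piece for mt-Nd1 and 2.46 times for mt-Nd2. mt-Nd4 (10167 to 11544) had the largest fall among the protein genes, from 3377, 8802, 16777 and 6286 CPM in KO+NM1 pieces to 824.8, 1173 and 957.5 CPM in KO pieces (log2 fold change -3.16, SE 0.55, adjusted p = 0.00553). mt-Nd5 (11742 to 13565) was at 935.8, 1283 and 1035 CPM in the KO pieces and at 3072, 7515, 13660.4 and 5536 CPM in the KO+NM1 pieces (log2 fold change -2.78, SE 0.52, adjusted p = 0.00655). In both genes KO piece 02 was the highest KO piece and KO+NM1 piece 03 the highest of all.

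mt-Nd6 (13552 to 14070) is the only protein gene on the minus strand and overlaps the end of mt-Nd5 by 14 bases. It was at 256.6, 347.4 and 286.9 CPM in the KO pieces and at 1012, 2336, 4004 and 2008 CPM in the KO+NM1 pieces. Its log2 fold change of -2.98 (SE 0.44, edgeR adjusted p = 0.00283) was the second largest of the protein genes, and it had the lowest adjusted p among them. Without a stated strand option, reads of mt-Nd6 and reads of the opposite strand at the same place cannot be told apart. The smallest members of complex I, mt-Nd3 (9459 to 9806) and mt-Nd4l (9877 to 10173), had few counts, and both lie in the copied stretch. mt-Nd3 was at 0.567, 0.904 and 0.594 CPM in the KO pieces against 1.35, 2.60, 7.02 and 2.59 CPM, and its copy Gm28438 was counted more than mt-Nd3 in every library. mt-Nd4l was at 0.267, 0.66 and 0.33 CPM against 1.13, 1.51, 3.95 and 1.11 CPM. The log2 fold changes were -2.29 (SE 0.58, adjusted p = 0.0196) for mt-Nd3 and -2.18 (SE 0.61, adjusted p = 0.0255) for mt-Nd4l. Both calls were lost without KO piece 01 (adjusted p = 0.0684 and 0.085) or KO piece 03 (adjusted p = 0.0677 and 0.0846). Neither pair of groups overlapped, but with the counts of the nuclear copies added, an alternative chosen after seeing the data, the changes were -1.63 (adjusted p = 0.0433) and -1.65 (adjusted p = 0.0514), so that mt-Nd4l was no longer called.

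Complex III hands electrons from ubiquinol to cytochrome c, and its only mitochondrially encoded subunit is cytochrome b, from mt-Cytb (14145 to 15288, plus strand). mt-Cytb was at 3098, 3649 and 2995 CPM in the KO pieces and at 8708, 22719, 44100.4 and 15014 CPM in the KO+NM1 pieces. The groups did not overlap, and the level in KO was 6.97-fold lower (log2 fold change -2.80, SE 0.62, edgeR adjusted p = 0.0131). Its call was lost without KO piece 01 (adjusted p = 0.0586) or KO piece 03 (adjusted p = 0.0592). No 75-base window of mt-Cytb was found in a nuclear gene, and it was the most counted of the genes outside the copied stretch in every library.

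Complex IV, cytochrome c oxidase, reduces oxygen to water, and its 3 catalytic core subunits are mitochondrially encoded. mt-Co1 (5328 to 6872, plus strand) was the most counted mitochondrial gene, at 7053, 7617 and 6892 CPM in the KO pieces and at 17606, 43544.5, 84620.4 and 28051 CPM in the KO+NM1 pieces. Its KO pieces lay within 1.11-fold of each other and its KO+NM1 pieces within 4.81-fold, and the log2 fold change was -2.60 (SE 0.68, edgeR adjusted p = 0.0238). Leaving out any KO piece raised the adjusted p of mt-Co1 above 0.05, to 0.0915, 0.0827 and 0.0913 without pieces 01, 02 and 03. mt-Co2 (7013 to 7696) was at 8.80, 9.42 and 6.44 CPM against 20.4, 48.0, 96.4 and 33.8 CPM, and mt-Co3 (8607 to 9390) was at 5.57, 7.37 and 5.05 CPM against 12.98, 28.4, 68.5 and 20.4 CPM. Although both had far fewer counts than mt-Co1, their log2 fold changes were near that of mt-Co1, at -2.59 (SE 0.50, adjusted p = 0.00713) and -2.44 (SE 0.55, adjusted p = 0.0129).

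Complex V, the ATP synthase, has 2 mitochondrially encoded subunits in its membrane part. mt-Atp8 (7766 to 7969) was at 361.8, 426.4 and 377.4 CPM in the KO pieces and at 920.6, 2289, 4673 and 1434 CPM in the KO+NM1 pieces. mt-Atp6 (7927 to 8607) was at 271.8, 314.8 and 278.0 CPM against 724.6, 1740, 3590.03 and 1083 CPM. For both genes the KO values all lay under the KO+NM1 values, and the log2 fold changes were -2.58 (SE 0.53, edgeR adjusted p = 0.0096) and -2.63 (SE 0.53, adjusted p = 0.00858).

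The rRNAs build the mitochondrial ribosome, mt-Rnr1 its small and mt-Rnr2 its large subunit. mt-Rnr1 (70 to 1024, plus strand) was at 269.8, 284.8 and 455.1 CPM in the KO pieces and at 822.3, 1372, 4953 and 790.8 CPM in the KO+NM1 pieces (log2 fold change -2.56, SE 0.70, edgeR adjusted p = 0.0278). mt-Rnr2 (1094 to 2675) was at 577.2, 552.8 and 804.7 CPM against 1399, 2670, 8251 and 1718 CPM (log2 fold change -2.44, SE 0.64, adjusted p = 0.0241). In both genes the groups did not overlap, KO piece 03 was the highest KO piece and KO+NM1 piece 03 stood far above the rest. Neither rRNA passed the adjusted p of 0.05 once any of the 3 KO pieces was left out, with adjusted p up to 0.0921 for mt-Rnr1 and 0.0811 for mt-Rnr2, and without KO+NM1 piece 03 the log2 fold changes were -1.58 and -1.60. Both rRNAs are a minor part of these counts although they are abundant in cells, and whether rRNA was depleted or poly(A) RNA selected is not given in the sources used here.

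**Figure D3:**
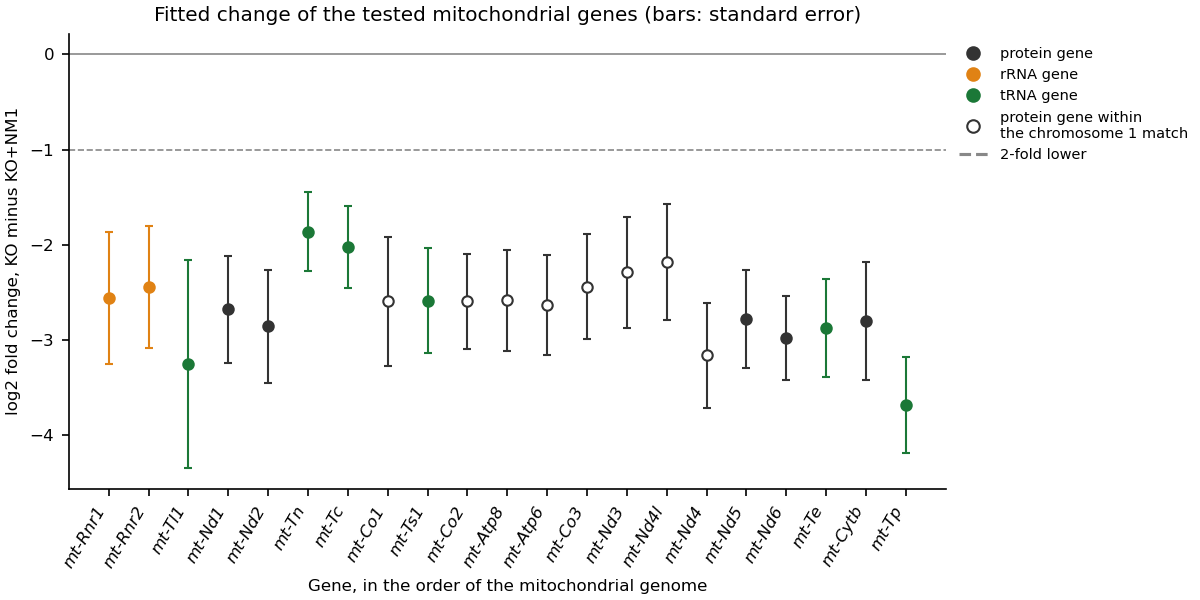
Fitted log2 fold change (KO minus KO+NM1, edgeR) of the 21 tested mitochondrial genes in genome order, with bars for the standard error and open circles for protein genes within the chromosome 1 match. All points lie below the dashed line of a 2-fold fall, from -1.86 for mt-Tn to -3.69 for mt-Tp.

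The tRNA genes gave few counts, 10953 over all libraries, and 96.8% of these were on 4 genes, all on the minus strand. Their sequences are shown because the tRNA results turn on them, with the anticodon in capitals, from chrMT:15356-15422 (mt-Tp, for proline), chrMT:5192-5257 (mt-Tc, for cysteine), chrMT:6870-6938 (mt-Ts1, for serine) and chrMT:5089-5159 (mt-Tn, for asparagine) of GRCm38, all read on the minus strand.
mt-Tp: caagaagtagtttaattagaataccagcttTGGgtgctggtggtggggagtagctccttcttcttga
mt-Tc: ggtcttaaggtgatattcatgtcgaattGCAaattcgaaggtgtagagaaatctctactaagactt
mt-Ts1: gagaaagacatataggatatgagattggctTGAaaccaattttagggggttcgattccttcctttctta
mt-Tn: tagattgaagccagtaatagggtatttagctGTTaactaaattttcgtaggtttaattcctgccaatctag

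mt-Tp alone held 81.5% of the tRNA counts. It was at 6.23, 7.65 and 7.40 CPM in the KO pieces and at 32.9, 92.0, 175.6 and 64.7 CPM in the KO+NM1 pieces. Its fall was the largest of all 21 tested members, 12.9-fold (log2 fold change -3.69, SE 0.51, edgeR adjusted p = 0.00244). mt-Tc was at 1.00, 1.81 and 1.85 CPM against 4.38, 4.27, 10.8 and 5.92 CPM (log2 fold change -2.02, SE 0.43, adjusted p = 0.00958). mt-Ts1, which overlaps the end of mt-Co1 by 3 bases on the opposite strand, was at 0.733, 0.904 and 0.826 CPM against 1.57, 4.84, 9.14 and 4.32 CPM (log2 fold change -2.59, SE 0.55, adjusted p = 0.0105). mt-Tn, at 0.70, 1.01 and 1.29 CPM against 2.30, 3.34, 5.88 and 3.08 CPM, had the smallest fall of the tested members (log2 fold change -1.86, SE 0.41, adjusted p = 0.0109). In none of the 4 genes did a KO piece reach the level of any KO+NM1 piece. The other 2 tested tRNA genes were mt-Te, with KO pieces at 0.198 to 0.333 CPM and KO+NM1 pieces at 0.766 to 2.87 CPM, and mt-Tl1, with KO pieces at 0 to 0.133 CPM and KO+NM1 pieces at 0.146 to 1.48 CPM. For mt-Tl1 the highest KO piece and the lowest KO+NM1 piece had 4 counts each, so only the scaling kept them apart. Of all 22 tRNA genes, 5 had no count in any library and 12 had 1 to 99 counts over all 7. The 8 tRNA genes on the minus strand held 99.03% of the tRNA counts and the 14 on the plus strand held 106 counts in all. As for mt-Nd6, without a stated strand option reads of the minus strand tRNA genes, mt-Tp among them, cannot be told from reads of the opposite strand there.

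Per kilobase of gene length, mt-Co1 was the highest gene in both groups, at a mean of 4652 ± 246.5 (SD, n = 3) CPM per kb in KO and 28127 ± 19055 (SD, n = 4) in KO+NM1. mt-Cytb followed at 2838.5 ± 307.8 and 19786 ± 13474 CPM per kb, then mt-Nd1 at 2329 ± 278.5 and 14918 ± 9915 CPM per kb. Within each of the 7 libraries the order was mt-Co1, mt-Cytb and mt-Nd1. On this per-length scale mt-Co2, mt-Co3, mt-Nd3 and mt-Nd4l lay at 12.02, 7.65, 1.98 and 1.41 CPM per kb in KO, the lowest of the 15 protein and rRNA genes. These 4 genes were among the 5 with over 97% of their windows in a nuclear gene, and the fifth, mt-Atp6, lay at 423.2 CPM per kb in KO. The part of the copies in these low levels was not tested.

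**Figure D4:**
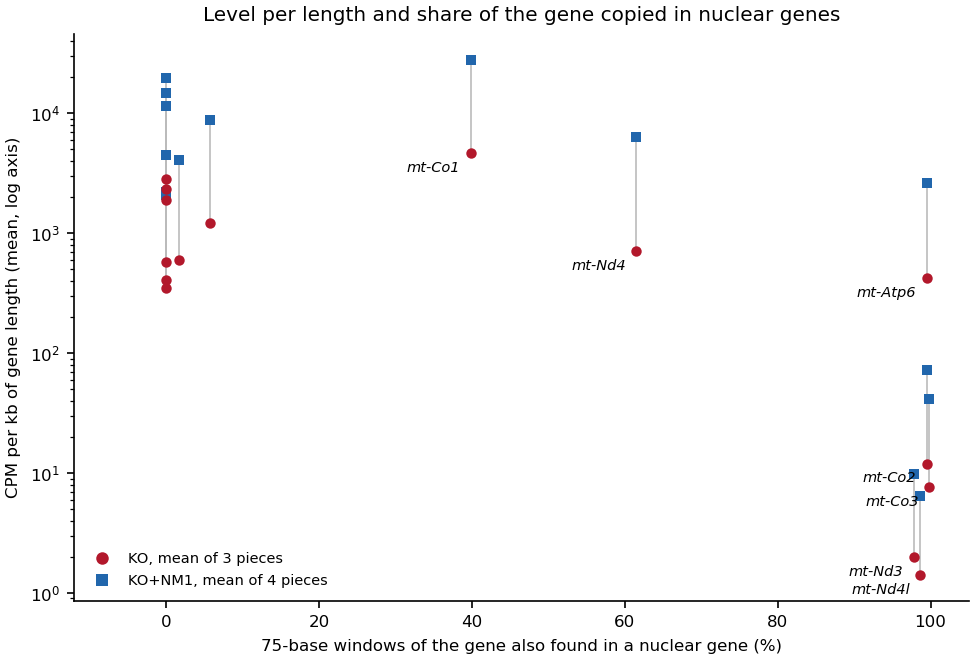
Mean CPM per kb of gene length on a log axis against the percentage of the 75-base windows of a gene that are also found in an annotated nuclear gene, for the 13 protein and 2 rRNA genes (circles, KO; squares, KO+NM1; a grey line joins the means of a gene). mt-Co2, mt-Co3, mt-Nd3 and mt-Nd4l lie lowest at shares of 97.8% to 99.9%, while mt-Atp6 at 99.5% lies above them.

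The pseudogenes themselves took few counts in all. Those of the chromosome 1 stretch summed to 0.361% to 0.403% of the counts on the 8 protein genes of that stretch in the KO pieces and to 0.25% to 0.287% in the KO+NM1 pieces. The largest part of that total was mt-Co1, and beside genes with few counts the copies weighed far more. Over all libraries Gm28661 had 28.4 to 41.7 counts per 100 of mt-Co2 and Gm28437 had 63.6 to 109.6 per 100 of mt-Co3. Gm10222 had 219.4 to 700 per 100 of mt-Nd4l. Gm28438, the most counted, was at 16.97, 16.5 and 16.7 CPM in the KO pieces and at 23.1, 38.9, 109.4 and 29.9 CPM in the KO+NM1 pieces. Its fall (log2 fold change -1.59, SE 0.53, edgeR adjusted p = 0.0472) was smaller than that of mt-Nd3, and it held 1827 to 2994 counts per 100 counts of mt-Nd3 in KO against 1156 to 1714 in KO+NM1 (exact permutation p = 0.0286). Gm10925 fell from 10.8, 27.4, 53.1 and 16.9 CPM in KO+NM1 pieces to 3.40, 4.28 and 2.67 CPM in KO pieces (log2 fold change -2.97, adjusted p = 0.0057). Its ratio to mt-Atp6 went the other way, at 0.962 to 1.36 counts per 100 in KO against 1.48 to 1.57 in KO+NM1 (exact permutation p = 0.0286). The ratio of Gm29216, the chromosome 1 copy of part of mt-Co1, was also lower in every KO piece (exact p = 0.0571). The other ratios of a copy to its gene overlapped between the groups. Gm28437 was at 6.10, 5.01 and 4.06 CPM in KO against 10.9, 21.6, 50.001 and 12.95 CPM (log2 fold change -2.24, adjusted p = 0.0169), and Gm28661 at 3.67, 2.68 and 2.28 CPM against 7.22, 18.5, 37.3 and 12.5 CPM (log2 fold change -2.71, adjusted p = 0.00845). Of the 7 copies on chromosome 1, 6 were called lower, beside 20.3% of all tested genes, and reads of a copy and of its identical mitochondrial gene cannot be told apart.

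To ask whether the fall was even over the genome, each protein gene was expressed as a share of the counts on the 13 protein genes, which removes the overall level. In 5 of the 13 genes the shares did not overlap between the tumors, and in 8 they did. No such count of shares was made outside the mitochondrial genes. For levels, KO lay wholly below KO+NM1 in 26.4% of all tested genes. Shares of 1 total are also tied to each other, since a gene that takes more leaves less to the rest, so the 5 are not separate results. mt-Co1 took 44.3%, 40.4% and 42.5% of the protein gene counts in the KO pieces and 38.8%, 39.2%, 38.7% and 37.7% in the KO+NM1 pieces, higher in KO by 3.80 percentage points (exact permutation test, two-sided, with p = 0.0286, below which 3 against 4 pieces cannot go). mt-Nd4 took 5.18%, 6.22% and 5.91% against 7.44%, 7.93%, 7.68% and 8.45%, so that its mean share in KO was 0.733 of that in KO+NM1 (exact p = 0.0286). mt-Atp8 took 2.27%, 2.26% and 2.33% against 2.03%, 2.06%, 2.14% and 1.93%, again with every KO piece on 1 side (exact p = 0.0286). The shares of mt-Atp6 (1.67% to 1.72% in KO against 1.46% to 1.64%) and mt-Nd3 (0.00356% to 0.0048% against 0.00234% to 0.00348%) were also higher in every KO piece, with an exact p of 0.0571 each. All 5 genes lie in the stretch copied on chromosome 1, which holds 8 of the 13 protein genes.

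The shares of the 5 genes outside that stretch overlapped between the tumors. mt-Cytb took 18.5% to 19.5% of the protein gene counts in KO and 19.2% to 20.5% in KO+NM1 (exact permutation p = 0.114), and mt-Nd1 took 12.7% to 13.4% against 12.2% to 13.8% (exact p = 0.6). mt-Nd2 (6.85% to 7.87% against 7.32% to 8.77%, exact p = 0.343) and mt-Nd5 (5.88% to 6.81% against 6.25% to 7.44%, exact p = 0.314) overlapped as well. mt-Nd6 took 1.61%, 1.84% and 1.77% against 2.23%, 2.10%, 1.83% and 2.70%, where KO+NM1 piece 03 fell among the KO pieces (exact p = 0.0857). When the shares were taken within these 5 genes alone, 0 of 5 separated the tumors, and mt-Cytb had means of 40.04% ± 1.61 (SD, n = 3) and 40.2% ± 1.36 (SD, n = 4). The shares of mt-Co2, mt-Co3 and mt-Nd4l, at or below 0.0553% in every library, overlapped between the groups (exact p = 0.343, 0.0857 and 0.371).

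**Figure D5:**
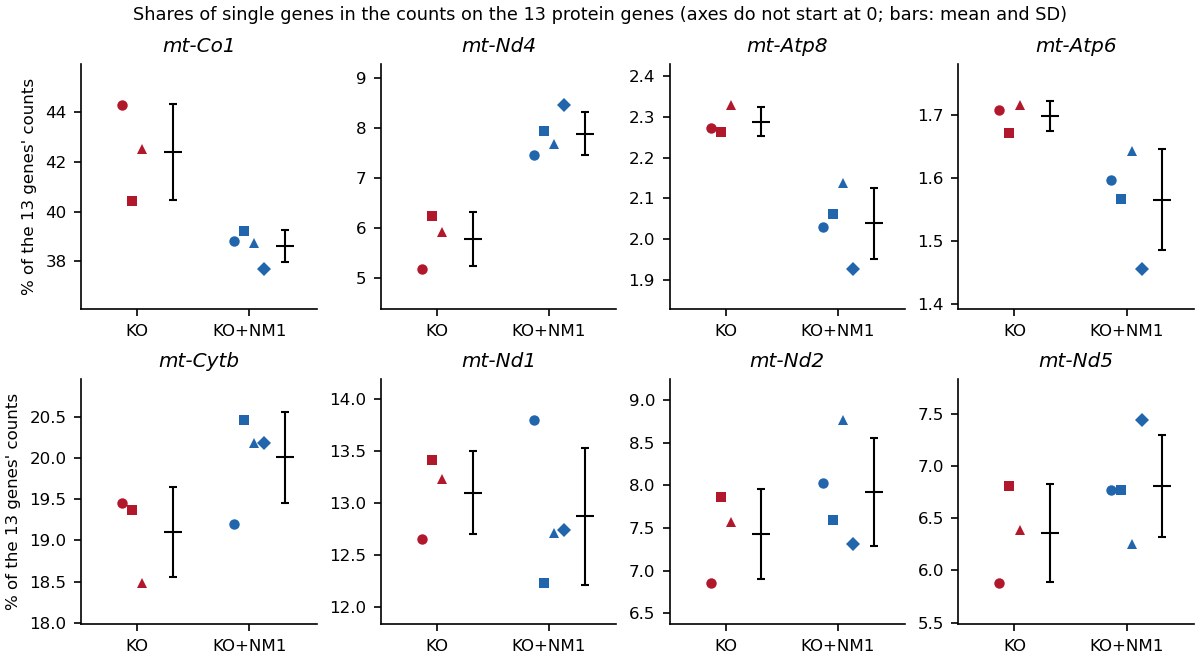
Percentage of the counts on the 13 protein genes that fell on each of 8 genes, 1 point per piece (red, KO; blue, KO+NM1; symbols mark the piece number), with the mean and SD of each group; the axes do not start at 0. The KO points lie apart from the KO+NM1 points for mt-Co1, mt-Nd4, mt-Atp8 and mt-Atp6 and overlap them for mt-Cytb, mt-Nd1, mt-Nd2 and mt-Nd5.

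Ratios between single genes used the same counts without the sum over the 13 genes. For every 100 counts of mt-Co1, mt-Nd4 had 11.7, 15.4 and 13.9 in the KO pieces and 19.2, 20.2, 19.8 and 22.4 in the KO+NM1 pieces (exact permutation p = 0.0286). Since every KO share was higher for mt-Co1 and lower for mt-Nd4, this ratio had to separate the groups. It restates the shares and is no further support for them. For every 100 counts of mt-Cytb, mt-Tp, which lies beyond it with the barely counted mt-Tt in between, had 0.201, 0.21 and 0.247 in the KO pieces and 0.378, 0.405, 0.398 and 0.431 in the KO+NM1 pieces, a mean ratio in KO of 0.544 of that in KO+NM1 (exact p = 0.0286). The groups did not overlap in either ratio. mt-Nd6 had 27.4, 27.1 and 27.7 counts per 100 of mt-Nd5 in KO and 32.9, 31.1, 29.3 and 36.3 in KO+NM1 (exact p = 0.0571), but overlapped when set against mt-Cytb (8.28 to 9.58 against 9.08 to 13.4, exact p = 0.171). Of these minus strand genes, mt-Tp was the only 1 whose ratio to mt-Cytb separated the groups. Both ratios may hold reads of the opposite strand, since the strand option is not given.

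mt-Atp8 had 133.1 to 135.7 counts per 100 of the overlapping mt-Atp6 in KO and 127.0 to 132.4 in KO+NM1, a difference of 4.47 (exact permutation p = 0.0571). The balance of the 2 rRNAs overlapped between the tumors, with 46.7 to 56.5 counts of mt-Rnr1 per 100 of mt-Rnr2 in KO and 46.0 to 60.04 in KO+NM1 (exact p = 0.6). mt-Rnr2 had 28.6, 21.9 and 37.5 counts per 100 of the next protein gene, mt-Nd1, in KO and 22.4, 19.7, 29.7 and 18.1 in KO+NM1 (exact p = 0.257). Both rRNAs together had 5.32, 4.45 and 7.77 counts per 100 protein gene counts in the KO pieces and 4.90, 3.64, 6.04 and 3.37 in the KO+NM1 pieces. These overlapped, and the difference of the means, 1.36, went down to 0.395 without KO piece 03. Exact tests were run on these 13 shares and 7 ratios, on 5 shares within the genes outside the copied stretch and on 12 ratios of a copy to its gene, 37 in all, and their p-values were not adjusted.

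The pieces of the KO+NM1 tumor fell in the same order, 03, 02, 04 and 01, for 13 of the 15 protein and rRNA genes, the exceptions being mt-Nd4l and mt-Rnr1, where pieces 04 and 01 changed places. From the lowest to the highest piece the levels of mt-Cytb spanned 5.06-fold in KO+NM1 and 1.22-fold in KO, and those of mt-Nd6 spanned 3.96-fold and 1.35-fold. The rRNAs varied most in KO+NM1, by 6.26-fold for mt-Rnr1 and 5.90-fold for mt-Rnr2.

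The nuclear subunits of the same complexes had medians closer to 0. Of 36 nuclear subunits of complex I, 9 were called lower in KO and 0 higher, with a median log2 fold change of -0.83, beside the 20.3% of all tested genes called lower. The counts were 2 of 9 lower for complex III (median -1.05), 4 of 10 for complex IV (median -0.91) and 0 of 15 for complex V (median -0.62). In complex V 1 was called higher, and by the adjusted p alone 2 were lower and 2 higher. In complex II, which has no mitochondrial gene, 3 of 4 were lower (median -1.36). Summed over all 74 nuclear subunits the levels were 10042 to 10439 CPM in KO and 9143, 19063, 29811 and 13969 CPM in KO+NM1 pieces 01 to 04, so that the sum in piece 01 was under that of each KO piece. The 13 mitochondrial protein genes had 1.54, 1.80 and 1.61 CPM per CPM of these subunits in KO and 4.96, 5.82, 7.33 and 5.33 in KO+NM1, and these ratios did not overlap. The nuclear sum of piece 01 was below every KO piece in complex I (2591 CPM against 2703 to 2869 CPM), complex III (1117 CPM against 1122 to 1191 CPM) and complex V (3154 CPM against 4162 to 4328 CPM). It was above every KO piece in complex II (682.2 CPM against 541.0 to 549.0 CPM) and complex IV (1599 CPM against 1512 to 1572 CPM). By complex, the ratio of mitochondrial to nuclear subunit levels had means of 2.12 and 7.94 for complex I, 2.80 and 9.20 for complex III, 4.64 and 12.4 for complex IV and 0.159 and 0.637 for complex V, in KO and KO+NM1, without overlap in any of the 4.

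Nuclear genes that serve the mitochondrial genome moved in both directions. Beside the 20.3% and 17.1% of all tested genes called lower and higher, in the list for mitochondrial transcription 1 of 11 was called lower and 0 higher (median log2 fold change -0.01), or 3 lower and 1 higher by the adjusted p alone. Tfam, which packages the DNA and starts transcription, was at 83.7, 75.7 and 75.3 CPM in the KO pieces and at 72.3, 41.7, 43.8 and 40.04 CPM in the KO+NM1 pieces, higher in each KO piece but by less than 2-fold (log2 fold change 0.66, SE 0.23, edgeR adjusted p = 0.047). Polrmt, the polymerase, was at 62.4, 58.8 and 54.8 CPM against 51.8, 39.2, 47.0 and 36.5 CPM (log2 fold change 0.43, SE 0.16, adjusted p = 0.0574). Neither of these genes was lower in a KO piece than in any KO+NM1 piece, whereas every tested mitochondrial gene was.

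In the list for replication 2 of 12 were lower and 1 was higher (median 0.19), in RNA processing 1 of 19 was lower and 0 higher (median 0.15), in tRNA modification 2 of 10 were lower and 0 higher (median -0.43), and in tRNA charging 2 of 20 were lower and 1 was higher (median -0.08). By the adjusted p alone these counts were 2 lower and 3 higher for replication, 3 and 4 for RNA processing, 4 and 2 for tRNA modification and 4 and 1 for tRNA charging. The called genes with the largest rises over the lists of transcription, replication, RNA processing and tRNA charging were Dna2, a nuclease and helicase of DNA replication and repair, and Lars2, which charges the mitochondrial leucine tRNAs. Dna2 was at 67.9, 65.7 and 61.4 CPM in KO against 6.82, 2.24, 2.52 and 4.32 CPM (log2 fold change 4.03, SE 0.38, edgeR adjusted p = 0.000613), and Lars2 at 1051, 719.4 and 2101 CPM against 401.4, 501.5, 650.7 and 397.8 CPM (log2 fold change 1.40, SE 0.39, adjusted p = 0.0215). Both were higher in every KO piece, and Lars2 varied widely among them. Lars2 also lay far above the other genes of its list, whose highest value was 155.3 CPM (Iars2, KO+NM1 piece 03). What sets Lars2 apart was not tested. In these 4 lists the largest falls among called genes were those of Gatb and Dguok. Gatb, a subunit of the enzyme that completes the charging of the mitochondrial glutamine tRNA, was at 8.60, 10.6 and 10.7 CPM against 15.4, 33.2, 42.7 and 26.4 CPM (log2 fold change -1.56, adjusted p = 0.00929). Dguok, a kinase that supplies purine nucleotides for mitochondrial DNA, was at 14.6, 16.3 and 14.9 CPM against 44.2, 43.2, 42.1 and 39.8 CPM (log2 fold change -1.47, adjusted p = 0.000415). In tRNA modification, which is outside these 4 lists, Trmt61b, named after its values were seen, fell further (log2 fold change -1.69, adjusted p = 0.00144).

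Of 6 coactivators and factors that act on nuclear genes for mitochondria, 3 were lower and 0 higher (median -0.67). Ppargc1a, a coactivator of mitochondrial biogenesis that is also in the brown adipocyte list, was at 0.533, 1.63 and 1.78 CPM in the KO pieces and at 3.39, 10.9, 18.9 and 8.67 CPM in the KO+NM1 pieces (log2 fold change -2.99, SE 0.63, edgeR adjusted p = 0.0112). Its KO+NM1 pieces stood in the order of the mitochondrial genes, 03, 02, 04 and 01. Myo1c, the gene of NM1, was at 312.5, 289.04 and 306.1 CPM against 438.0, 407.8, 406.2 and 381.6 CPM (log2 fold change -0.43, SE 0.13, adjusted p = 0.031). Every KO piece was below every KO+NM1 piece, but a count per gene does not separate NM1 from the other isoforms or the injected from the host cells, so this does not check the deletion. Of the nuclear-retained RNAs Malat1, Neat1 and Kcnq1ot1, which summed to 956.2 to 1396 CPM in KO and to 2383 to 4560.4 CPM in KO+NM1, only Neat1 was called lower (268.3 to 706.6 CPM against 1458 to 3699 CPM), while Malat1 overlapped between the groups (630.5 to 779.2 CPM against 651.5 to 887.3 CPM, adjusted p = 0.376). The 67 histone genes, taken by name from a class whose messages mostly lack a poly(A) tail, summed to 57.1 to 73.8 CPM in KO and to 85.5 to 205.9 CPM in KO+NM1. Neat1 and the histone sum were higher in every KO+NM1 piece, as was the mitochondrial share, and their part in it was not tested.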

How the data were processed

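Reads of tumor pieces were trimmed by the authors with Trimmomatic 0.36, aligned to GRCm38 with HISAT2 2.0.4 and counted per gene with HTSeq-count. The strand option, the mode and the annotation release are not given in the sources used here. The deposited files hold unnormalized counts of reads on 46603 Ensembl genes, of which 46005 matched the GENCODE M21 annotation. The members and the lists were chosen with earlier results of these data known.

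The analysis used R 4.3.3 and edgeR 4.0.16. After filterByExpr (minimum count 10) and TMM scaling, edgeR's quasi-likelihood test was run with Benjamini-Hochberg adjustment over all 16887 tested genes. A gene was called at an adjusted p under 0.05 and at least 2-fold. Shares and ratios were compared by a two-sided exact permutation test over the 35 ways to assign 3 of the 7 libraries. Copied windows of 75 bases were found by exact match between GENCODE M21 transcript sequences, and aligned with Biopython 1.88. No 2 libraries agreed within sampling noise (chi-square per degree of freedom at least 35.2). In simulated data with 200 changed genes among 16887, the test called 51 of them and 4 unchanged genes. Named were the 13 protein and 2 rRNA genes, the 4 most counted tRNA genes, the 4 most counted nuclear copies, Myo1c, Tfam, Polrmt, Ppargc1a and the 2 called genes with the largest change in each direction over 4 lists. Alternatives were DESeq2 1.42.0 size factors and Wald test, upper-quartile factors, library size alone, scaling without mitochondrial genes, other filters, limma 3.58.1 voom with quality weights, the adjusted p alone, a replicate block, each library left out, other denominators, and, added after seeing the data, the counts of the nuclear copies summed into their genes.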

Additional observations from a re-analysis of the deposited data

Results flagged for a closer look

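In all, 2 levels were singled out because the highest KO+NM1 piece stood far from the other 3. In mt-Rnr1 the gap between piece 03 (4953 CPM) and the next piece (1372 CPM) was 0.86 of the whole range of the 4 pieces, above Dixon's critical value for 4 samples. In mt-Nd4l the gap between piece 03 (3.95 CPM) and the next (1.51 CPM) was 0.861 of the range. Of 42 levels, shares and ratios examined in this way, 2 passed, and chance alone passes about 1 in 20 groups. mt-Nd4l had few counts and nearly all of it is copied on chromosome 1.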

How the results depend on the processing

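The direction held for the 15 protein and rRNA genes in all 254 pairs of gene and alternative setting, and the call was lost in 23 of them, by leaving out a KO piece, by the replicate block or, for mt-Nd4l, by adding the nuclear copies. The count of members called lower was 18 to 21 under the other scalings, filters and tests, and 13 to 21 when 1 library was left out (13 without KO piece 01, against 21). With the piece number as a replicate block 12 members were called; the numbers do not pair the pieces, since same-numbered pieces deviated together by correlations of 0.0716, 0.0966 and -0.0193 only. The count of members called higher was 0 in every setting. The scaling moved the median log2 fold change of all genes from -0.0017 to between -0.16 (upper-quartile factors) and 0.166 (library size alone), where the protein genes had medians of -2.79 and -2.35. The number of protein genes whose shares did not overlap went from 5 to 0 within the genes outside the nuclear copy, a set that leaves out all 5 of them, and was 5 to 7 when 1 library was left out. The rRNA difference per 100 counts went from 1.36 to 3.28 against the protein genes outside the copy, a smaller denominator, and was 0.395 to 2.06 when 1 library was left out. The difference of mitochondrial shares was -10.3 to -5.87 percentage points when 1 library was left out. With only the genes outside the copy it was -4.47, from a smaller numerator over the same total. These genes held 0.889% to 1.10% of all counts in KO and 2.67% to 9.72% in KO+NM1. Genes with few counts, the tRNAs above all, are limited by depth, and 16 of the 37 members had too few counts to be tested.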
